A study of Mus musculus with 96 samples.

Results

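MHC class I molecules display peptides from the inside of a cell at its surface, and 10 genes of that pathway were followed here in single blood stem cell precursors and stem cells of the mouse embryo. The genes were taken by symbol from the deposited count table, which held 19836 genes after rows of the same symbol were summed: B2m, H2-D1, H2-K1, H2-T23, Tap1, Tap2, Tapbp, Psmb8, Psmb9 and Psmb10. All 10 were found, and all 10 had at least 30 reads, as did 15239 genes in all. Each of the 96 samples was 1 cell of a C57BL/6 embryo, sorted into its own well and amplified with a SMART-Seq kit, so reads rather than molecules were counted. The E11.5 groups were precursors of haematopoietic stem cells (pre-HSCs): 48 cells from the aorta-gonad-mesonephros region (AGM) and 16 cells from the yolk sac, both sorted as Ter119-CD11b-CD144+c-kit+EPCR+. Fetal liver gave the haematopoietic stem cells (HSCs), 16 at E12.5 sorted as Ter119-Sca-1+c-kit+EPCR+ and 16 at E14.5 sorted as Ter119-Sca-1+c-kit+CD48-CD150+. Tissue, age and sorting gate therefore changed together between the E11.5 cells and the liver cells, and their parts in a difference cannot be told apart. Age and sorting gate also changed together between the E12.5 and E14.5 liver cells, with the same limit. The gate of each group is also what limits it as a model, since it fixes which precursors or stem cells were sampled.

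The labels name no animal, litter or pool, so each group counts as 1 sample. No test between groups was possible, and every difference below has no replicate check. Levels are given as CPM (reads of a gene scaled to a common library total), either in single cells or pooled, that is, from reads summed over the cells of a group. Intervals are exact at 95% and cover counting error only.

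As background, a class I molecule is a heavy chain (H2-K1 and H2-D1 are the classical ones in this mouse strain, H2-T23 encodes the non-classical Qa-1) held by the light chain beta-2 microglobulin, the product of B2m. Peptides are cut by the proteasome, carried into the endoplasmic reticulum by the transporter made of Tap1 and Tap2, and loaded with the help of tapasin, the product of Tapbp. Psmb8, Psmb9 and Psmb10 encode the catalytic subunits of the immunoproteasome, which take the places of Psmb5, Psmb6 and Psmb7 and change which peptides are cut. Haematopoietic cells carry much of this machinery without infection, and interferons raise it further through interferon-stimulated response elements (ISREs) in class I promoters.

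Of the members, 8 lie on chromosome 17, in the mouse MHC, while B2m lies on chromosome 2 and Psmb10 on chromosome 8 (GRCm38, GENCODE M21). Psmb9 (chr17:34181987-34187764, minus strand) and Tap1 (chr17:34187553-34197225, plus strand) start head to head and overlap, followed by Psmb8 (chr17:34197721-34201454, plus strand) and Tap2 (chr17:34203527-34216321, plus strand). RefSeq (GRCm38.p6) gave a promoter window, from 250 bases before to 50 bases after the annotated start, for 9 of the 10 members. The entry for Tap2 was missing. The sequences below are the 200 bases before the RefSeq start, 5′ to 3′ on the gene's strand, with CCAAT, on either strand, in capitals. They cover the light chain, the 3 heavy chains and the Psmb9 side of the shared Psmb9 and Tap1 promoter. The stretches of Tap1, Tapbp, Psmb8 and Psmb10 are not printed.
B2m: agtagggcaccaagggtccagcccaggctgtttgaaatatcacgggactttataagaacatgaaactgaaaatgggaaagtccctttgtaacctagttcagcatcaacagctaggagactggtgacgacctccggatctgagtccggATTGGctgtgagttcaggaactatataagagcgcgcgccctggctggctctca
H2-K1: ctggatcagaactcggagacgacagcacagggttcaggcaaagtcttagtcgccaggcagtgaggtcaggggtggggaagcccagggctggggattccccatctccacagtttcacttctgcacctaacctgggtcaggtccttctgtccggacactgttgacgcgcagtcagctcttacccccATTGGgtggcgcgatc
H2-D1: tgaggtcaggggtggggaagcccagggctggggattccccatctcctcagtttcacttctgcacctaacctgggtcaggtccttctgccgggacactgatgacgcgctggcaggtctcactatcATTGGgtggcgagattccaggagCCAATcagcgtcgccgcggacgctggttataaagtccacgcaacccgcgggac
H2-T23: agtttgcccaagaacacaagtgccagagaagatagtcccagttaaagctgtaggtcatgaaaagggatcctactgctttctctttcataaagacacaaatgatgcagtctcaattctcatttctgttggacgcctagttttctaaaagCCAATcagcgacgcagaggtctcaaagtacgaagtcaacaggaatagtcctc
Psmb9: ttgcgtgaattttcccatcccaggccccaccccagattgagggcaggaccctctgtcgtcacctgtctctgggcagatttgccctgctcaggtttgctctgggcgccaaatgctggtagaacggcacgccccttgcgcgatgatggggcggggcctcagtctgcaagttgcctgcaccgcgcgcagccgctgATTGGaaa

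These stretches lie at chr2:122147487-122147686 (B2m, plus strand), chr17:34000348-34000547 (H2-K1, minus strand), chr17:35262894-35263093 (H2-D1, plus strand), chr17:36032702-36032901 (H2-T23, minus strand) and chr17:34187331-34187530 (Psmb9, minus strand). CCAAT, searched on both strands, was present in the windows of B2m, H2-K1, H2-D1, H2-T23, Tap1, Tapbp and Psmb9. It was absent from those of Psmb8 and Psmb10. Of 32851 RefSeq promoter windows of the same length, 37.4% held it. In the H2-K1 window 1 of its CCAAT matches lies after the start and is not in the printed stretch. For H2-D1, H2-T23 and Psmb9 the RefSeq start lies inside the GENCODE gene. The printed stretches of H2-D1 and Psmb9 therefore lie wholly within that gene, and that of H2-T23 in part. The longest identical run between the H2-D1 and H2-K1 windows was 47 bases, and the Psmb9 and Tap1 windows share 275 bases. A match is a description of the sequence, not a measured site.

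Single cells had 250235 to 1926882 reads, and cells had a median gene number of 5522.5 in the AGM, 5349.5 in the yolk sac, 4036 in the E12.5 liver and 4839 in the E14.5 liver. All 7 listed haematopoietic genes (among them Ptprc, Runx1 and Spi1) were read in every group, and the median of their summed level per cell ran from 1925 CPM in the AGM to 2586 CPM in the E12.5 liver. Defining hepatocyte genes (4 of 6 listed were analysed) had a median summed level of 0 CPM in the AGM and both liver groups and 0.394 CPM in the yolk sac. Cells that stood apart were AGM cells 3 and 36, with summed endothelial marker levels of 7984 and 5691 CPM and summed haematopoietic marker levels of 0.872 and 92.9 CPM, and AGM cell 37, with a summed macrophage marker level of 6526 CPM. Others were E12.5 liver cell 8, with 1011 genes and a summed macrophage marker level of 26991 CPM, and E14.5 liver cells 3, 8, 13 and 16, in which globin genes took 4.41% to 21.95% of reads against at most 0.151% in the other 12. In the yolk sac, 8 of 16 cells lacked reads of both Cdh5 and Procr, the genes of the sort markers CD144 and EPCR.

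Between the E11.5 AGM precursors and the E12.5 liver stem cells, the members were higher in the liver with few exceptions. The pooled level on the log2(CPM + 1) scale was above that of AGM for 10 of 10 members, and 9 of 10 were at least 2-fold higher, where 15.6% of the 15239 genes were. None was 2-fold lower, where 26% of all genes were. The median log2 ratio of the members was 1.57, against -0.20 for all genes. The largest ratios were those of H2-T23 (log2 ratio 4.50), Psmb8 (3.44), Tap2 (2.35) and Psmb9 (2.21), and only H2-D1, at 0.64, stayed within 2-fold. Leaving out each cell in turn moved the median between 1.41 and 1.84, and without AGM cells 3, 36 and 37, an alternative chosen after seeing the data, it was 1.52 with 9 members past 2-fold. The count of 9 included Tap1 and Tapbp, whose ratios rested on few cells, as given below.

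**Figure D1:**
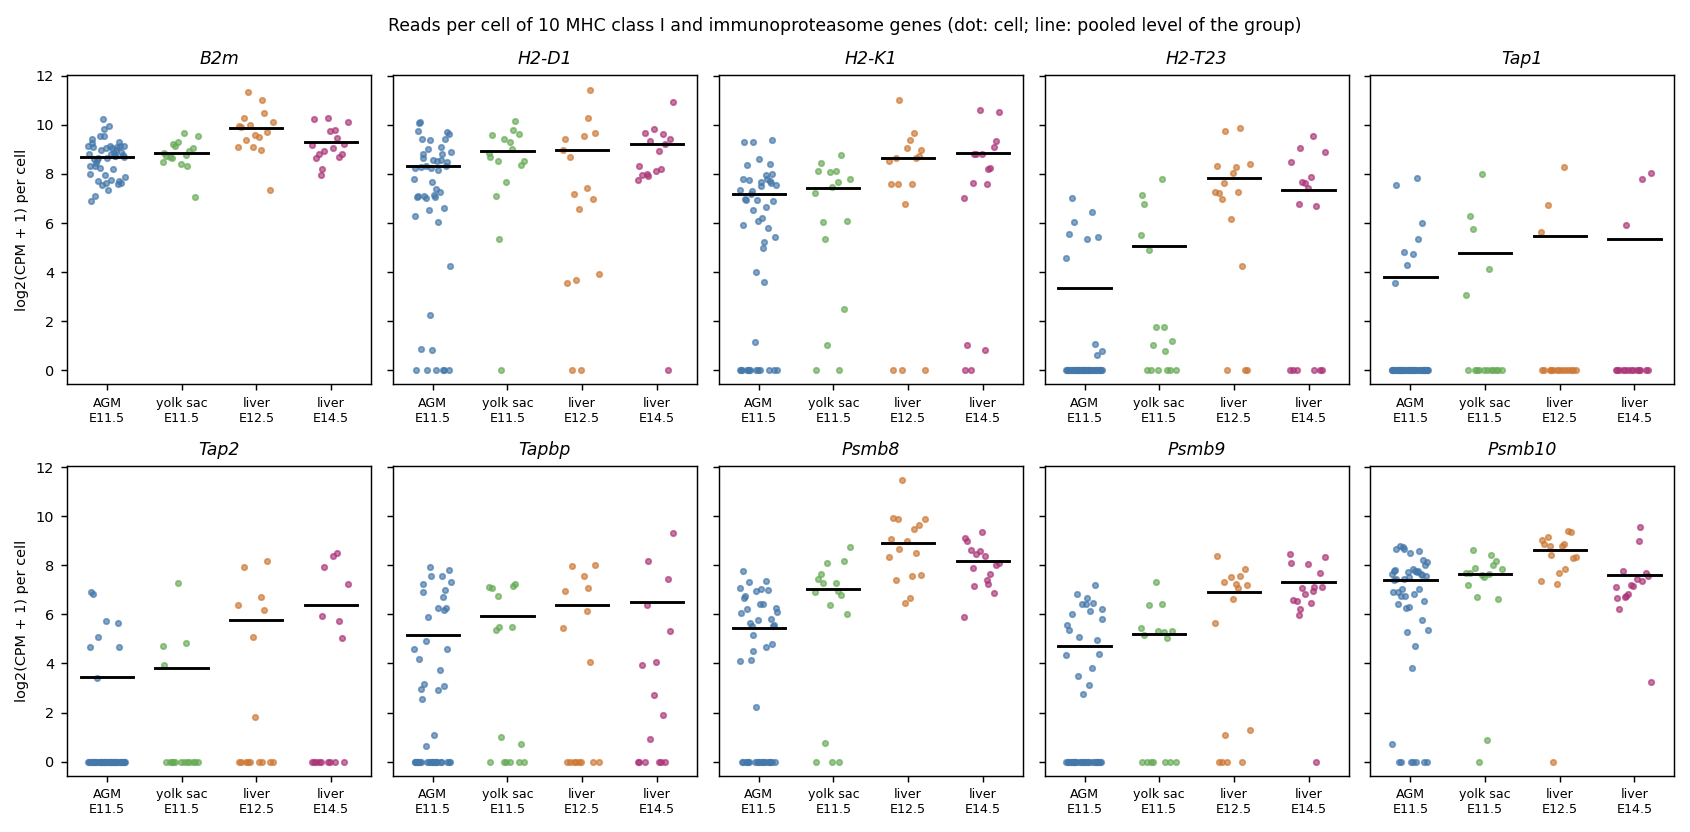
Level of each member in each of the 96 cells, as log2(CPM + 1) on the y axis, with the 4 groups on the x axis. A dot is a cell and the black line is the pooled level of the group. B2m had reads in all cells, whereas the dots at 0 are cells with no read, which for Tap1 and Tap2 were most cells of every group.

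B2m, the light chain shared by all class I molecules, was the member with reads in every cell. Its level in AGM cells ran from 119 to 1204 CPM with a median of 425 CPM, and in yolk sac cells from 131 to 818 CPM with a median of 449 CPM. E12.5 liver cells ran from 160 to 2573 CPM with a median of 900.1 CPM, and E14.5 liver cells from 247 to 1233 CPM with a median of 555 CPM. The groups overlapped, but 15 of the 16 E12.5 liver cells lay above the AGM median and 4 lay above the highest AGM cell. The pooled level was 409 CPM (404 to 414) in the AGM and 935 CPM (921 to 949) in the E12.5 liver, a 2.28-fold difference with a counting interval of 2.24 to 2.33. No cell held more than 13.8% of a group's B2m reads.

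H2-K1, a classical heavy chain, was read in 35 of the 48 AGM cells, 14 of the 16 yolk sac cells, 13 of the 16 E12.5 liver cells and 14 of the 16 E14.5 liver cells. Median levels were 95.3 CPM in the AGM and 162.1 CPM in the yolk sac, with highest cells at 659 and 441 CPM, and some cells of every group were at 0. In the liver the median was 387 CPM on the earlier day and 299 CPM on the later, with highest cells at 2058 and 1560 CPM. Pooled levels were therefore 143.9 and 172.3 CPM in the E11.5 groups and 403 and 460.1 CPM in the liver groups. E12.5 liver was 2.80-fold above AGM (2.72 to 2.89), and 3 of its 16 cells exceeded every AGM cell.

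H2-D1, the other classical heavy chain, did not show the group order of H2-K1. It was read in 42 of 48, 15 of 16, 14 of 16 and 15 of 16 cells, in the order AGM, yolk sac, E12.5 liver and E14.5 liver. Per cell, H2-D1 had medians of 253 CPM in the AGM, 436 CPM in the yolk sac, 157.99 CPM in the E12.5 liver and 408 CPM in the E14.5 liver, so the E12.5 median was the lowest of the 4. The pooled E12.5 level of 504 CPM nevertheless exceeded the AGM level of 323 CPM, and liver cell 7 alone, at 2734 CPM, held 34.8% of the group's reads. Without the cell with most reads in each group the log2 ratio of E12.5 liver over AGM was 0.22 in place of 0.64. Only 7 of the 16 E12.5 liver cells lay above the AGM median. Per kilobase of the principal transcript, H2-D1 had 153.8 CPM and H2-K1 88.9 CPM in the AGM, and the order was reversed by a small margin in the E12.5 liver, with 240 CPM for H2-D1 and 249 CPM for H2-K1.

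H2-T23, whose product Qa-1 is a ligand of inhibitory receptors on natural killer and T cells, differed most between groups. In AGM 10 of 48 cells (20.8%, 10.47% to 34.99%) had a read, the median cell was at 0, and the highest reached 129 CPM. In yolk sac 10 of 16 cells had a read, but the median was only 1.15 CPM and 5 of 16 cells (31.2%) passed 10 CPM. In E12.5 liver 13 of 16 cells (81.2%, 54.4% to 96.0%) had a read, with a median of 152.4 CPM and a highest cell at 942 CPM. At E14.5, 10 of 16 liver cells had a read, with a median of 140.9 CPM and a highest cell at 750 CPM. Of the E12.5 liver cells, 10 of 16 exceeded every AGM cell. Pooled levels were 9.17 CPM in the AGM, 32.3 CPM in the yolk sac, 229.5 CPM in the E12.5 liver and 161.6 CPM in the E14.5 liver, and E12.5 liver was 25.01-fold above AGM (22.9 to 27.4). Leaving out 1 cell moved that log2 ratio between 4.19 and 5.11. Of the 50-base windows of H2-T23 transcripts, 16.005% also occur in other genes, chiefly class I genes and pseudogenes. The corresponding shares were 14.3% for H2-D1 and 8.11% for H2-K1, so reads of heavy chain genes could be split or shared between them in a way the sources used here do not describe.

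**Figure D2:**
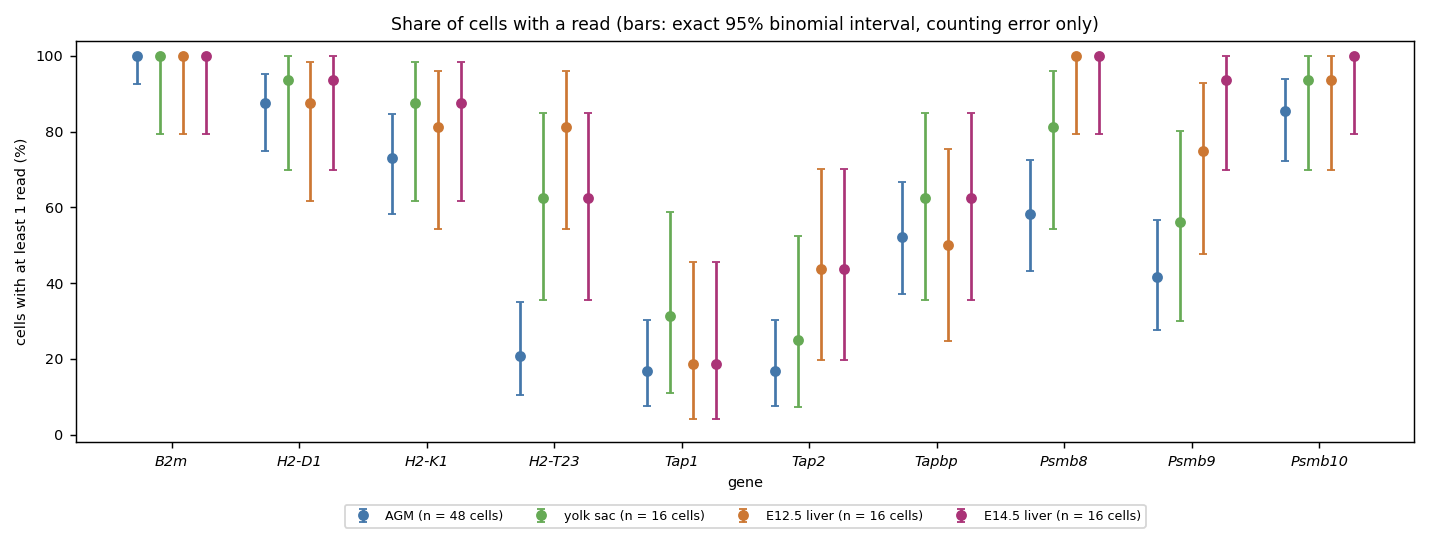
Share of cells with at least 1 read of each member (y axis, %) by gene (x axis) and group (colour). Bars are exact 95% binomial intervals. The shares of H2-T23, Psmb8 and Psmb9 were lower in the AGM, at 20.8%, 58.3% and 41.7%, than in each other group, and Tap1 was read in 16.7% to 31.2% of the cells of each group.

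Tap1 and Tap2 together form the peptide transporter, and both were thinly read. Tap1 had reads in 8 of the 48 AGM cells, 5 of the 16 yolk sac cells, 3 of the 16 E12.5 liver cells and 3 of the 16 E14.5 liver cells, so the median cell was at 0 in each group. Highest cells were similar, at 226.98, 252, 314 and 262 CPM in the same order. Pooled levels of 12.9, 26.1, 43.1 and 40.3 CPM thus came from a handful of cells, and in E12.5 liver cell 2 held 72.2% of the reads. Without that cell the log2 ratio of E12.5 liver over AGM was 0.04 in place of 1.67, and the shares of cells with a read were 16.7% in the AGM and 18.8% in the E12.5 liver.

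Tap2 was read in 8 of the 48 AGM cells, 4 of the 16 yolk sac cells, 7 of the 16 E12.5 liver cells and 7 of the 16 E14.5 liver cells. Its highest cells had 119, 154.5, 285 and 363 CPM, and its pooled levels were 9.80, 13.1, 54.0 and 81.7 CPM. The E12.5 liver level was 5.51-fold above AGM (4.97 to 6.11), and the log2 ratio stayed between 1.74 and 2.87 when any 1 cell was left out. Both transporter genes were read together in 2 of the 48 AGM cells and in 3 of 16 cells of each other group. Genes annotated across Tap2 (Gm15821 and Gm20496) cover 18.5% of its exon bases, Gm20496 also covers 14.7% of those of Psmb8, and the strand setting of the counting is not given in the sources used here.

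Tapbp, the loading factor tapasin, was read in 25 of the 48 AGM cells, 10 of the 16 yolk sac cells, 8 of the 16 E12.5 liver cells and 10 of the 16 E14.5 liver cells. Medians were 0.835, 20.4, 7.77 and 4.14 CPM, and highest cells 239, 151.1, 257 and 632 CPM. Pooled levels of 34.7, 59.6, 81.6 and 88.4 CPM went from lowest to highest in this order of groups, whereas the shares of cells with a read were 52.1%, 62.5%, 50% and 62.5%. Genes annotated across Tapbp (Gm19412 and Zbtb22) cover 29.02% of its exon bases, and 21.02% of its 50-base windows also occur in other genes. The 2.35-fold difference of E12.5 liver over AGM dropped under 2-fold without E12.5 liver cell 3 (log2 ratio 0.84) or cell 4 (0.89), and when each cell was weighted equally (0.75).

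Psmb8, the immunoproteasome counterpart of Psmb5, was read in all 32 liver cells but in 28 of the 48 AGM cells (58.3%, 43.2% to 72.4%) and 13 of the 16 yolk sac cells. AGM cells had at most 214.2 CPM with a median of 23.3 CPM, and yolk sac cells at most 431 CPM with a median of 120.5 CPM. The lowest E12.5 liver cell had 86.4 CPM, the median was 452 CPM and the highest 2849 CPM. At E14.5 the lowest liver cell had 57.9 CPM, the median was 264 CPM and the highest 661 CPM. Of 16 E12.5 liver cells, 16 lay above the AGM median and 11 above the highest AGM cell. The log2 ratio of E12.5 liver over AGM stayed between 3.27 and 3.55 when any 1 cell was left out. The highest cell was E12.5 liver cell 8, in which macrophage markers were also highest, and without it the pooled E12.5 level was 443 CPM in place of 475 CPM.

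Psmb9, the counterpart of Psmb6, was read in 20 of the 48 AGM cells, 9 of the 16 yolk sac cells, 12 of the 16 E12.5 liver cells and 15 of the 16 E14.5 liver cells. Medians were 0, 32.9, 115 and 128 CPM, and highest cells 146.6, 159.99, 330.3 and 351 CPM. The pooled level was 24.8 CPM in the AGM, 36.04 CPM in the yolk sac, 118 CPM in the E12.5 liver and 156.4 CPM in the E14.5 liver. E12.5 liver exceeded AGM 4.76-fold (4.46 to 5.08), with 7 of its 16 cells above the highest AGM cell. Across the head-to-head promoter, the levels of Psmb9 and Tap1 had a Pearson r of 0.01 over 96 cells, as a description. Within groups r was -0.04 in the AGM (n = 48), 0.33 in the yolk sac, -0.04 in the E12.5 liver and -0.49 in the E14.5 liver (n = 16 each).

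Psmb10, the counterpart of Psmb7, was read in 41 of the 48 AGM cells, 15 of the 16 yolk sac cells, 15 of the 16 E12.5 liver cells and 16 of the 16 E14.5 liver cells. Medians were 149.4, 202.7, 391 and 144.8 CPM, and highest cells 444, 395, 674 and 744 CPM. Pooled levels were 169.3, 198.5, 388 and 194.6 CPM, so only the E12.5 liver stood above the rest. Its level was 2.29-fold that of AGM (2.22 to 2.36), with 14 of 16 cells above the AGM median.

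**Figure D3:**
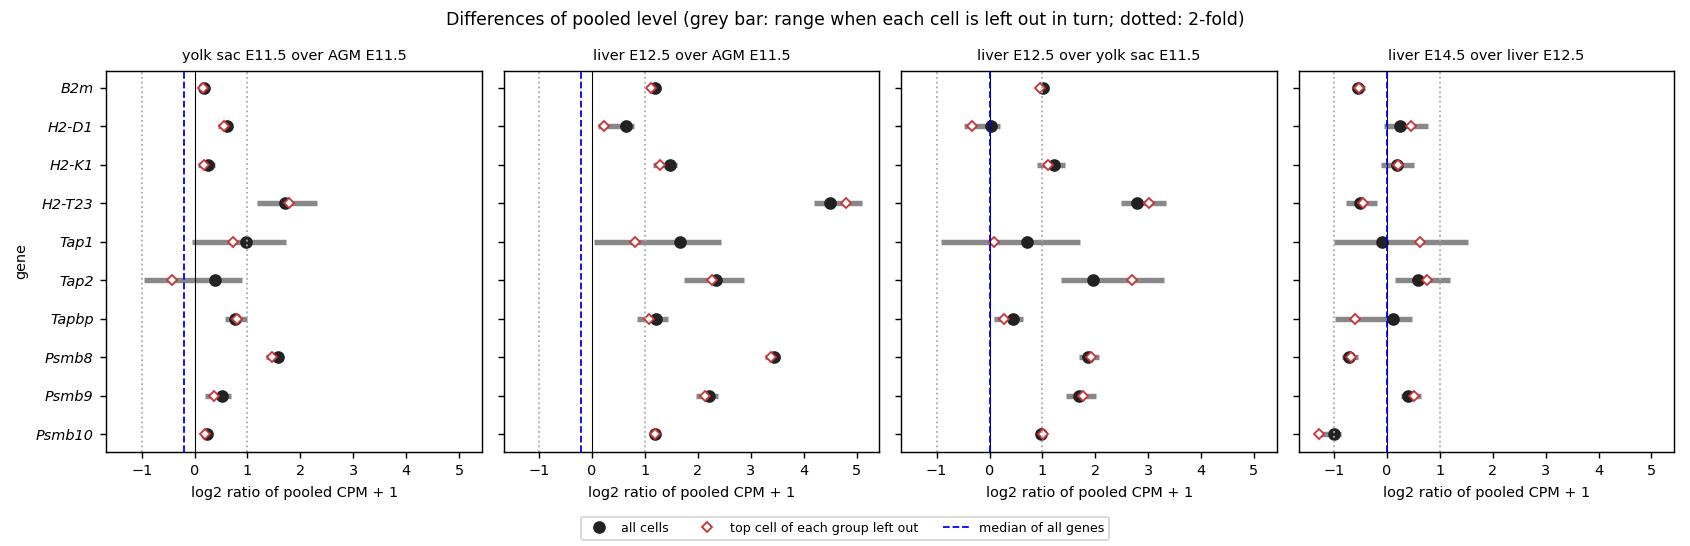
Log2 ratio of pooled CPM + 1 (x axis) for each member (y axis) in the 4 comparisons. Black dots use all cells, red diamonds leave out the cell with most reads of that gene in each group, grey bars span the values when each cell is left out in turn, dotted lines mark 2-fold and the dashed line the median of all genes. H2-T23 and Psmb8 lie furthest right for E12.5 liver over AGM, at 4.50 and 3.44, while Tap1 has the widest bars.

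Immunoproteasome subunits and their constitutive counterparts can be read against each other within the same cells, where library size cancels. Psmb5, Psmb6 and Psmb7 did not follow the members: their log2 ratios of E12.5 liver over AGM were -0.19, -0.27 and -0.57, and none of the 3 passed 2-fold in any comparison. Of all genes 15.6% were 2-fold higher and 26% lower in the E12.5 liver than in the AGM. Of the reads of Psmb8 and Psmb5 together, Psmb8 held 5.81% in the AGM, 15.6% in the yolk sac, 43.9% in the E12.5 liver and 36.3% in the E14.5 liver. For Psmb9 with Psmb6 the shares were 1.90%, 2.58%, 9.99% and 14.2%. Psmb10 already held 40.7% of the reads with Psmb7 in the AGM, and 51.8%, 70.2% and 53.7% in the other groups.

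Counting intervals of these shares were narrow (43.2% to 44.5% for Psmb8 in the E12.5 liver), but cells differed widely. In E12.5 liver the Psmb8 share ran from 9.68% to 99.7% with a median of 45.1%, and in the AGM from 0% to 23.7% with a median of 3.19%. It exceeded 50% in 0 of the 48 AGM cells, 1 of the 16 yolk sac cells, 5 of the 16 E12.5 liver cells and 6 of the 16 E14.5 liver cells. The Psmb10 share exceeded 50% in 15 of 48, 11 of 16, 14 of 15 and 7 of 16 cells with reads of the pair. Corrected for transcript length, the Psmb8 share was 3.30% in the AGM and 30.1% in the E12.5 liver, so Psmb5 remained the more abundant partner per length in both. Psmb5 shares 57.1% of its 50-base windows with other annotated genes, among them a Psmb5 pseudogene, which can add to or take away from its count.

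**Figure D4:**
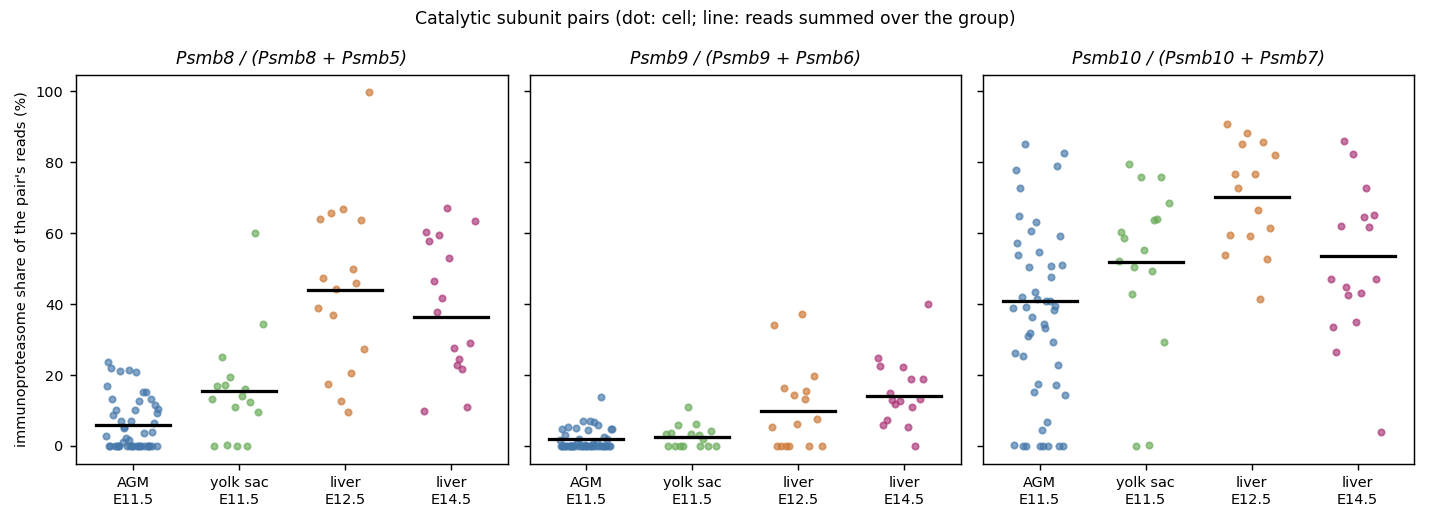
Share of the reads of each catalytic pair held by the immunoproteasome gene (y axis, %), by group (x axis). A dot is a cell with reads of the pair and the black line is the share of reads summed over the group. The Psmb8 line rises from 5.81% in the AGM to 43.9% in the E12.5 liver, whereas the Psmb9 line stays at or below 14.2% in every group.

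Between the pre-HSCs of yolk sac and AGM, sorted with the same gate at the same age, differences were smaller. The median log2 ratio of yolk sac over AGM was 0.56 against -0.20 for all genes, and 10 of 10 members were above 0. H2-T23 (1.71) and Psmb8 (1.57) were at least 2-fold higher, 2 of 10 members where 8.61% of all genes were. None was 2-fold lower, where 21% of all genes were. Without AGM cells 3, 36 and 37 the median was 0.54 and the count was again 2. For Psmb8, 12 of the 16 yolk sac cells lay above the AGM median and 3 above the highest AGM cell. The B2m ratio of 0.18 became -0.01, and the Tap2 ratio of 0.38 became -0.50, when only the 8 yolk sac cells with a Cdh5 or Procr read were used.

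Single yolk sac cells carried several of these values. Cell 13 had the largest share of the reads of Tap1 (54.98%), Tap2 (67.1%) and Psmb9 (25.2%), and the median ratio of the members was 0.22 without it. The Tap1 ratio of 0.97 fell just short of 2-fold and became -0.04 without that cell. Yolk sac cell 10 had the largest share of the reads of B2m (9.27%) and H2-T23 (35.6%). It also had the highest summed level of the antigen-presenting markers Cd74, H2-Aa, H2-Ab1 and H2-Eb1 in its group, at 391 CPM. That sum came from Cd74 alone, of which cell 10 held 94.4% of the group's reads. H2-Aa was read only in cell 13, and most H2-Ab1 and H2-Eb1 reads were in cells 15 and 16. Without cell 10 H2-T23 pooled to 21.95 CPM in place of 32.3 CPM and B2m to 444 CPM in place of 463 CPM. The median of that marker sum was 0 CPM in the AGM and E12.5 liver, 5.81 CPM in the yolk sac and 0.307 CPM in the E14.5 liver, and H2-Aa was at 0 in every group but yolk sac.

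The E12.5 liver against yolk sac comparison uses the same liver cells as that against AGM, so these sets of ratios are not independent. Relative to yolk sac 6 of 10 members were at least 2-fold higher in the E12.5 liver, where 19.7% of all genes were, with a median log2 ratio of 1.12 against 0.00. None was 2-fold lower, where 19.5% of all genes were. These were H2-T23 (2.79), Tap2 (1.96), Psmb8 (1.87), Psmb9 (1.69), H2-K1 (1.22) and B2m (1.01). Psmb10 (0.96), Tap1 (0.70), Tapbp (0.45) and H2-D1 (0.03) stayed under 2-fold. For H2-D1 6 of the 16 E12.5 liver cells lay above the yolk sac median, for B2m 15 of 16. The B2m and H2-K1 ratios were close to the 2-fold line, at 0.88 and 0.90 without E12.5 liver cell 16.

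Between E12.5 and E14.5 the liver cells differed little as a set. Age and sorting gate changed together here, and their parts cannot be told apart. No member passed 2-fold in either direction, where 36.9% of all genes did (18.7% higher and 18.2% lower), and the median log2 ratio of E14.5 over E12.5 was 0.01. The comparison shares its E12.5 cells with those above. Ratios ran from -0.99 for Psmb10 to 0.59 for Tap2, with Psmb8 at -0.72, B2m at -0.55 and H2-T23 at -0.50 on the lower side and Psmb9 at 0.40, H2-D1 at 0.26 and H2-K1 at 0.19 on the higher side. Cells overlapped for every member, yet for Psmb10 only 2 of 16 and for Psmb8 only 3 of the 16 E14.5 cells lay above the E12.5 median. Psmb10 was at 388 CPM in the earlier and 194.6 CPM in the later group, a 1.995-fold difference (0.482 to 0.521 as a ratio of E14.5 to E12.5). Its ratio was -1.34 without E14.5 liver cell 15, which held 27.2% of the later group's reads.

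A single E14.5 liver cell shaped the values of that group. Cell 9 had the largest share of the group's reads of any cell for 7 of the 10 members. These were Tapbp (57.3%), Tap1 (52.1%), H2-D1 (26.4%), H2-K1 (25.7%), H2-T23 (23.9%), Psmb9 (16.3%) and B2m (13.8%). The cell was 1 of 2 E14.5 cells with reads of all 10. It had the highest summed level of the members in its group, at 6671 CPM against a median of 2395 CPM. In the same cell Psmb10 had 14 reads, or 8.48 CPM, the lowest value of the group. Its depth of 1651585 reads and 5477 genes was within the range of the others, antigen-presenting markers were at 0 CPM, macrophage markers summed to 1293 CPM against a group median of 598 CPM, and endothelial markers to 1236 CPM, the highest of the group, against a median of 287 CPM. Their part in the result was not tested. Without cell 9 the median log2 ratio of E14.5 over E12.5 was -0.68, the Tap1 ratio was -1.01 and Tapbp pooled to 41.04 CPM in place of 88.4 CPM.

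Leaving out the 4 globin-rich E14.5 liver cells moved the members in both directions. Without them B2m pooled to 647 CPM in place of 638 CPM, H2-D1 to 618 in place of 602 CPM, Psmb8 to 288 in place of 287 CPM and Psmb9 to 172.2 in place of 156.4 CPM. H2-K1, at 391 in place of 460.1 CPM, and H2-T23, at 135.6 in place of 161.6 CPM, were lower without them. The H2-K1 ratio of E14.5 over E12.5 became -0.04. H2-T23 was read in 6 of the 12 cells left, against 10 of 16 in the whole group.

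Cells with at least 690000 reads were thinned to that depth, 43, 16, 14 and 14 cells in the order AGM, yolk sac, E12.5 liver and E14.5 liver. Among them H2-T23 was read in 18.6%, 56.2%, 92.9% and 57.1% of cells. Psmb8 was read in 55.8%, 75%, 100% and 100%, and Psmb9 in 44.2%, 56.2%, 78.6% and 92.9%. These shares had the same order of groups as without thinning except that H2-T23 was 57.1% at E14.5 against 56.2% in the yolk sac, where both were 62.5% before. The liver shares also changed because shallow cells were left out. E12.5 liver cells 8 and 12 had 0 reads of H2-T23, and E14.5 liver cells 2 and 14 had 470 and 245. The number of members read in a cell was also higher in the liver. The median cell had reads of 5.5 members in the AGM, 7 in the yolk sac, 7.5 in the E12.5 liver and 8 in the E14.5 liver. Among the thinned cells the medians were 5, 7, 8 and 8. All 3 immunoproteasome genes were read together in 14 of the 48 AGM cells, 8 of the 16 yolk sac cells, 12 of the 16 E12.5 liver cells and 15 of the 16 E14.5 liver cells. B2m, H2-K1 and H2-D1 were read together in 31 of 48, 13 of 16, 11 of 16 and 13 of 16 cells. No AGM cell had reads of all 10 members, and 2 cells of each other group did. The summed level of the members per cell had medians of 1144, 1592, 3052 and 2395 CPM, with lowest cells at 136, 725, 1269 and 1291 CPM.

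**Figure D5:**
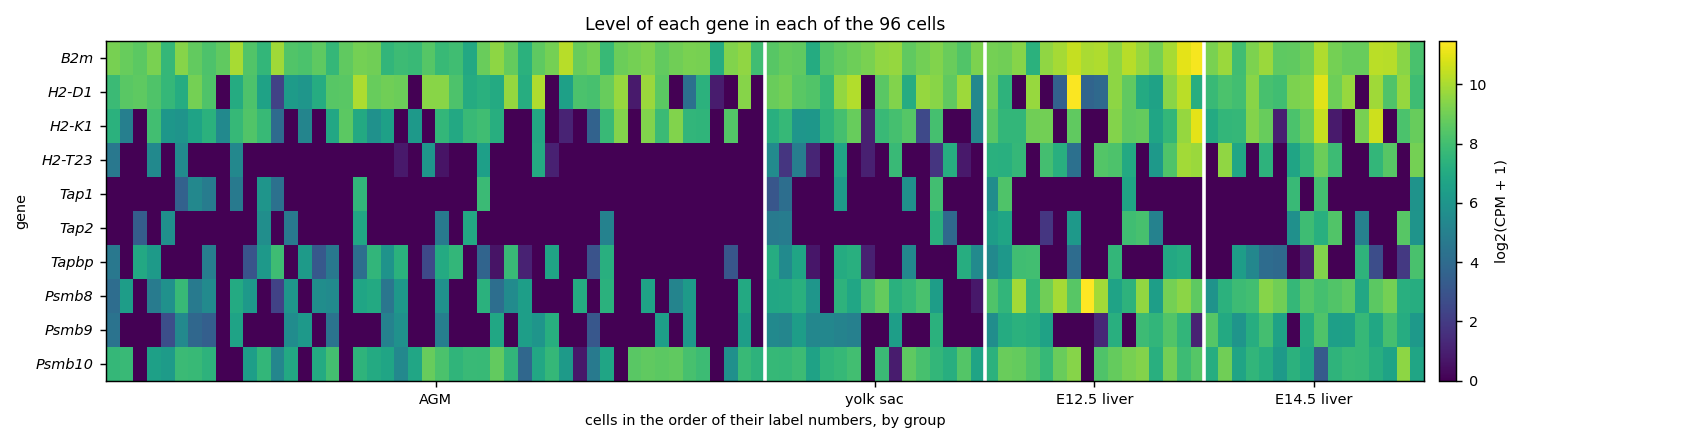
Level of each member (rows) in each of the 96 cells (columns, by group and in the order of their label numbers), as log2(CPM + 1) in colour. Reads of Tap1 and Tap2 are scattered over few cells, and the Psmb8 row is filled in all 32 liver cells and broken in the AGM, where 28 of 48 cells have a read.

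Within a group, the median pair of members did not vary together strongly from cell to cell. Over all 96 cells the median Pearson correlation of log2(CPM + 1) between pairs of members was 0.18, with the highest pair at 0.48 (B2m and H2-T23) and the lowest at -0.15 (B2m and Tapbp). Within AGM, yolk sac, E12.5 liver and E14.5 liver the median pair stood at 0.10, 0.17, 0.08 and -0.03. Single pairs ranged more widely within groups. They reached 0.63 for H2-K1 and Psmb9 in the yolk sac and for Tap1 and Tap2 in the E12.5 liver. The lowest was -0.57, for H2-K1 and Psmb8 in the E12.5 liver. H2-K1 and H2-D1 correlated at 0.22 and Psmb8 and Psmb9 at 0.39 over all cells, values that include the differences between groups. Cells with more genes detected had reads of more members (r = 0.37 over all cells, 0.52 within AGM, 0.78 within yolk sac, 0.74 within E12.5 liver and 0.14 within E14.5 liver). All of these are descriptions with no test: each cell is its own library, depth differs between cells, and the cells of a group share their source.

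The genes whose pattern over the 96 cells was most like the mean log2(CPM + 1) of the members were Car2 (r = 0.60), Ltb (0.57), Lsp1 (0.56), Ebi3 (0.54) and Ptprcap (0.54), out of 6690 genes read in at least 30% of cells, whose median r was 0.05 and 95th percentile 0.27. Car2 encodes a carbonic anhydrase, Ltb encodes lymphotoxin beta, Lsp1 an actin-binding protein of leukocytes, Ebi3 a cytokine subunit and Ptprcap a partner of CD45. Pooled Ptprcap was 75.3 CPM in the AGM, 269 CPM in the yolk sac, 951 CPM in the E12.5 liver and 628 CPM in the E14.5 liver, the same order of groups as H2-T23 and Psmb8. Pooled Car2 was 269 CPM in the AGM and 2579 CPM in the E14.5 liver. With the group means removed, the correlations were 0.41, 0.52, 0.42, 0.33 and 0.25 in the order given.

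Other genes listed around the class I pathway, among them interferon receptors and MHC class II genes, differed in both directions. Of 58 listed genes 50 had at least 30 reads, and 9 were at least 2-fold higher and 4 lower in the E12.5 liver than in the AGM, where 15.6% and 26% of all genes were. Their median log2 ratio was 0.36. In yolk sac relative to AGM 12 of the 50 were higher and 3 lower, where 8.61% and 21% of all genes were. Of these 12 higher genes, 6 belonged to the MHC class II list described below. In the E12.5 liver relative to yolk sac 10 were higher and 6 lower, where 19.7% and 19.5% were, and in E14.5 relative to E12.5 liver 8 and 8, where 18.7% and 18.2% were.

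Genes listed for peptide loading and trimming were mostly lower in the E12.5 liver than in the AGM, with 2 of 8 above the AGM level. Of these 8 genes 0 were 2-fold higher and 1 was lower than in the AGM, where 15.6% and 26% of all genes were. The median log2 ratio of the 8 was -0.54. Pdia3, the partner of tapasin in the loading complex, was read in 48 of the 48 AGM cells and 15 of the 16 E12.5 liver cells, with pooled levels of 889 and 594 CPM (log2 ratio -0.58). Hspa5, the general chaperone BiP of the endoplasmic reticulum, had 824 and 410.2 CPM, a log2 ratio of -1.005. The insulin-degrading peptidase Ide had 136 and 84.3 CPM (-0.68), and the aminopeptidase Lnpep 6.49 and 3.94 CPM (-0.60).

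Genes for proteasome activation and assembly stayed near their AGM levels. Of 8 none passed 2-fold in the E12.5 liver over AGM, where 15.6% of all genes were higher and 26% lower. The median log2 ratio of the 8 was 0.29. Psme1, a subunit of the activator PA28 that works with the immunoproteasome, was at 513 CPM in the AGM, 497 CPM in the yolk sac, 764 CPM in the E12.5 liver and 678 CPM in the E14.5 liver. Among assembly chaperones, Psmg1 had a log2 ratio of 0.53, Psmg3 -0.73 and Psmg4 0.09 in that comparison.

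Non-classical relatives of the heavy chains were uneven. Of 14 listed genes 8 had enough reads. In the E12.5 liver 4 of these 8 were at least 2-fold higher than in the AGM, where 15.6% of all genes were. For H2-T22, named here after its values were seen, and Mr1, 2 of these 4, 1 E12.5 cell held 95.5% and 90.4% of the group's reads, and without it the pooled E12.5 levels were 0.931 CPM in place of 18.8 CPM and 0.637 CPM in place of 5.98 CPM. Fcgrt, the neonatal Fc receptor chain that also pairs with beta-2 microglobulin, had pooled levels of 7.43, 34.6, 85.0 and 18.1 CPM in the AGM, yolk sac, E12.5 liver and E14.5 liver, with reads in 8 of 48, 6 of 16, 8 of 16 and 4 of 16 cells. Its log2 ratio of E12.5 liver over AGM was 3.35. Cd1d1, which presents lipids, had 42.8, 15.1, 69.4 and 60.2 CPM. Mr1, which presents microbial metabolites, was read in 1 AGM cell, 0 yolk sac cells, 2 E12.5 liver cells and 3 E14.5 liver cells, and H2-Q4 did not pass 3.46 CPM in any group.

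Regulators of class I genes were also mixed, with 3 of 11 at least 2-fold higher and 1 lower in the E12.5 liver than in the AGM. Of all genes 15.6% were higher and 26% lower. Irf9, the DNA-binding subunit of the interferon-activated complex ISGF3, was at 15.4, 20.6, 57.6 and 73.1 CPM, with reads in 14 of 48, 5 of 16, 6 of 16 and 8 of 16 cells. Stat2, its partner in that complex, had 7.07 CPM in the AGM and 0.269, 0.0525 and 0 CPM in the other groups, where 2, 1 and 0 cells had a read. Irf2, a factor that binds the same response element, had 30.1, 18.7, 66.7 and 44.2 CPM. Rfx5, which binds class I and class II promoters, had at most 9.57 CPM in any group.

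Among the interferon receptor chains and their kinases 0 of 6 were 2-fold higher and 1 was lower in the E12.5 liver than in the AGM. Of all genes 15.6% were higher and 26% lower. Ifnar1 was read in 16 of the 48 AGM cells, 6 of the 16 yolk sac cells, 1 of the 16 E12.5 liver cells and 4 of the 16 E14.5 liver cells, with pooled levels of 12.2, 39.05, 3.88 and 15.6 CPM. Ifngr2 was at 22.5, 21.9, 41.4 and 59.5 CPM and Jak1 at 145.4, 105, 144.2 and 79.6 CPM. Jak2 had 18.1 CPM in the earlier liver and 0.194 CPM, from 4 reads in 2 cells, in the later one.

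MHC class II genes mark antigen-presenting cells. In E12.5 liver H2-Aa and H2-Ab1 had 0 reads and Cd74 had 4 reads in 1 cell. H2-DMa, a peptide loading chain of class II named here after its values were seen, had pooled levels of 7.91, 22.95, 53.7 and 41.7 CPM in the AGM, yolk sac, E12.5 liver and E14.5 liver, with reads in 5 of 48, 5 of 16, 5 of 16 and 2 of 16 cells. All 6 class II genes with enough reads were at least 2-fold higher in the yolk sac than in the AGM, where 8.61% of all genes were, from few cells: Cd74 was read in 3 of the 16 yolk sac cells and cell 10 held 94.4% of its reads. H2-DMb1 had 0 reads in the AGM, 9.01 CPM in the yolk sac, 10.02 CPM in the E12.5 liver (1 cell) and 0.194 CPM in the E14.5 liver. Endothelial markers had median sums of 817, 366, 643 and 287 CPM and macrophage markers of 513, 364, 833 and 598 CPM across the 4 groups. Erythroid markers had median sums of 21.2, 30.3, 547.5 and 222.2 CPM. Over all 96 cells the erythroid markers correlated with the mean of the members at 0.46, against 0.10 for endothelial and 0.05 for macrophage markers. Within groups the erythroid values were 0.16, -0.06, -0.19 and 0.43. The part of these markers in the differences of the members was not tested.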

How the data were processed

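Each of the 96 cells has a column of whole-number read counts per gene in the single table the authors deposited, and 0 columns were left unmapped. FastQC, Trimmomatic 0.36, STAR, HTSeq and the build mm10 are named per the submitters' processing notes, without settings. The annotation, the strand setting and the treatment of multiply mapped reads are not given in the sources used here. The labels mention no molecular identifiers.

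Of 19949 rows, 113 shared a symbol with another row and were summed. Pooled levels are a group's summed counts scaled to CPM. Ratios are log2 ratios with 1 CPM added to both pooled values, which makes differences of low genes look smaller, and 2-fold means a log2 ratio of at least 1 in size. Genes needed 30 reads over all cells, and cells needed 1000 genes, which removed 0 cells. Intervals are exact Poisson for levels, exact conditional for folds and Clopper-Pearson for shares, at 95%. PCR reads without identifiers are not independent, so all intervals reflect counting error alone. No doublet caller was run on these singly sorted wells. Thinning to 690000 reads left out 5 AGM, 0 yolk sac, 2 E12.5 and 2 E14.5 cells. Levels between genes were compared per kilobase of the longest principal transcript in GENCODE M21 on GRCm38, the mm10 assembly. Windows of 50 bases were matched between transcripts, and CCAAT was searched on both strands of RefSeq promoter windows (GRCm38.p6).

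The members and gene lists were chosen with earlier results of these data known. The text names the 10 members, Psmb5, Psmb6, Psmb7, up to 4 genes of each pathway list by the size of their largest ratio, and the 5 genes most like the members' mean. Alb, Cd3e, Ciita, H2-Q2, H2-Q6, H2-T10, H2-T3, Ighm, Nlrc5, Rag1 and Serpina1a were not analysed here, and Adgre1, Cx3cr1, H2-Q1 and H2-Q10 had too few reads. Alternatives were equal weights for cells, thinned reads, 10 CPM added, no read minimum, median-of-ratios scaling, at least 2000 genes per cell, each cell left out in turn, the top cell of each gene left out, only yolk sac cells with a Cdh5 or Procr read, and E14.5 liver without 4 globin-rich cells. AGM without cells 3, 36 and 37 was added after seeing the data. The calculation of pooled ratios was run on simulated counts with planted changes and counting error only. The simulation had no further spread between cells, so it does not cover ratios carried by few cells. Python 3.11.15, numpy 2.4.6, scipy 1.17.1 and pandas 2.3.3 were used.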

Additional observations from a re-analysis of the deposited data

How the results depend on the processing

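No paired analysis was possible because the labels number cells only within a group and each group is 1 sample. The median log2 ratio of the members for yolk sac over AGM (0.56) was 0.66 with median-of-ratios scaling, 0.45 without the top cell of each gene, 0.43 with only the yolk sac cells that had a Cdh5 or Procr read, and 0.22 to 0.66 with each cell left out in turn. For E12.5 liver over AGM (1.57) it was 1.42 with cells weighted equally, 1.32 with 10 CPM added, 1.24 without top cells and 1.41 to 1.84 with each cell left out. For E12.5 liver over yolk sac (1.12) it was 1.25 with equal weights, 1.27 thinned, 1.04 with median-of-ratios scaling, 1.06 without top cells, 1.37 with the Cdh5 or Procr cells and 0.94 to 1.49 with each cell left out. For E14.5 over E12.5 liver (0.01) it was -0.13 without top cells and -0.68 to 0.12 with each cell left out.

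The count of members past 2-fold for E14.5 over E12.5 liver (0) was 1 with equal weights, 2 thinned, 1 with at least 2000 genes per cell, 1 without top cells and 0 to 1 with each cell left out. The counts of the other comparisons stayed within 1.5 times of 2, 9 and 6 in every alternative run. The cause was not tested, other than that fewer cells enter where cells are left out. Depth limits what a cell without a read shows, since it may still express the gene. Without AGM cells 3, 36 and 37, an alternative added after seeing the data, the medians were 0.54 for yolk sac over AGM and 1.52 for E12.5 liver over AGM.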
